A study of Mus musculus with 12 samples.

Results

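The interleukin 6 family was described in the mouse colon through 10 genes, taken by symbol from the 54532 genes counted in each library. They were the ligands Il6, Il11, Osm (oncostatin M) and Lif (leukemia inhibitory factor), the receptor genes Il6ra, Il11ra1, Osmr and Il6st, the transcription factor Stat3 and its feedback inhibitor Socs3. All 10 genes passed the filter on low counts and were among the 17658 genes tested. The study asked whether ursolic acid (UA, a plant triterpenoid) protects or treats mice with colitis induced by dextran sulfate sodium (DSS, a sulfated polysaccharide that injures the colon epithelium). Colon RNA of 12 male C57BL/6 mice, 3 of the 8 in each group, was sequenced. The mice were 6 weeks old on arrival and carried no named mutant allele or transgene. The Con group received no DSS, and the DSS group drank 3% (w/v) DSS for 5 days. Both received the vehicle by gavage according to the methods, although the labels call the Con mice untreated. The UA+DSS group drank the same DSS and was gavaged with 200 mg/kg UA once a day for 7 days, starting 1 day before DSS. The DSS+UA group received the same dose for 4 days, starting 3 days after the start of DSS. All DSS groups are thus models of acute chemical injury. The sources used here do not say how the sequenced colons were chosen or which stretch of colon was taken.

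The 4 ligands are secreted cytokines that share the receptor chain gp130, encoded by Il6st. IL-6 and IL-11 first bind the receptor chains encoded by Il6ra and Il11ra1, whereas oncostatin M and LIF signal through gp130 paired with the chains encoded by Osmr and Lifr. Engaged gp130 activates JAK kinases, which phosphorylate STAT3, and STAT3 induces Socs3, whose product binds gp130 and JAK and shuts the signal down. In the colon the pathway is known for its part in inflammation and in epithelial repair. A transcript level does not measure secreted cytokine or STAT3 phosphorylation.

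The libraries held 15566216 to 19498383 counts. Values are CPM, counts scaled to a common library total with TMM factors, and libraries are named by group and replicate. The labelled tissue showed its markers: the 8 colon epithelium genes, Epcam and Muc2 among them, summed to 4813 CPM or more in every library. The library DSS 2 stood apart, since its 8 neutrophil markers summed to 18520 CPM against 909 and 1009 CPM in DSS 1 and DSS 3. A colon position score also differed with the groups. It subtracts the mean log2 CPM of Hoxb3 to Hoxb8, genes of the caecal end, from that of Hoxb13 and Hoxd10 to Hoxd13, genes of the rectal end. It was -5.70 to -4.16 in UA+DSS, 4.11 to 5.06 in DSS+UA, 0.37 to 3.10 in DSS and -3.03 to 5.53 in Con. The UA groups therefore occupied opposite ends of this score, and results are given with it as a covariate where a call depends on it. In whole tissue, fewer cells of a type and less RNA per cell cannot be told apart.

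DSS raised all 4 ligands, and Il6, Il11 and Osm were close to the limit of detection in Con. Il6 (5:30013114-30019981, GRCm38), the founding cytokine of the family, had 0, 1 and 1 counts in Con 1 to Con 3 and 148, 208 and 504 counts in DSS 1 to DSS 3. In CPM these were 0, 0.0555 and 0.0535 against 7.12, 10.4 and 26.6. The groups did not overlap, and DSS 3 held 2.56 times as much Il6 as the next DSS library. With 2 counts in all of Con, the Il6 level in DSS was 404 times that in Con, with a 95% exact binomial interval of 111.5 to 3341 that covers counting error only. Il6 was called (edgeR adjusted p = 0.00432). That ratio was 245 without DSS 3 and 265 without Con 1.

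Il11 (7:4772373-4782859), a cytokine made largely by stromal cells, gave 0.517, 0.277 and 0.107 CPM in Con and 43.2, 37.9 and 85.0 CPM in DSS. Its fitted log2 fold change was 7.49 (SE 0.82, n = 3 per group, edgeR adjusted p = 0.00117), the smallest SE of the 3 strongly raised ligands, and 8.13 without Con 1. Osm (11:4236420-4241026), a product mainly of myeloid cells, gave 0.362, 0.388 and 0.214 CPM in Con against 16.6, 152 and 13.7 CPM in DSS. DSS 2 alone held 9.16 times the Osm of the next DSS library. The log2 fold change of Osm was 7.53 (SE 1.23, edgeR adjusted p = 0.00347) and fell to 5.53 without DSS 2, still called. Lif (11:4257557-4272514) lies next to Osm on the same strand, 16530 bp away with 0 annotated genes between them. Unlike Osm it was well detected in Con, at 5.84, 5.99 and 4.81 CPM, and reached 22.1, 10.9 and 17.7 CPM in DSS. DSS 2, the highest library for Osm, was the lowest DSS library for Lif, whose log2 fold change was 1.61 (SE 0.28, edgeR adjusted p = 0.00399).

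**Figure D1:**
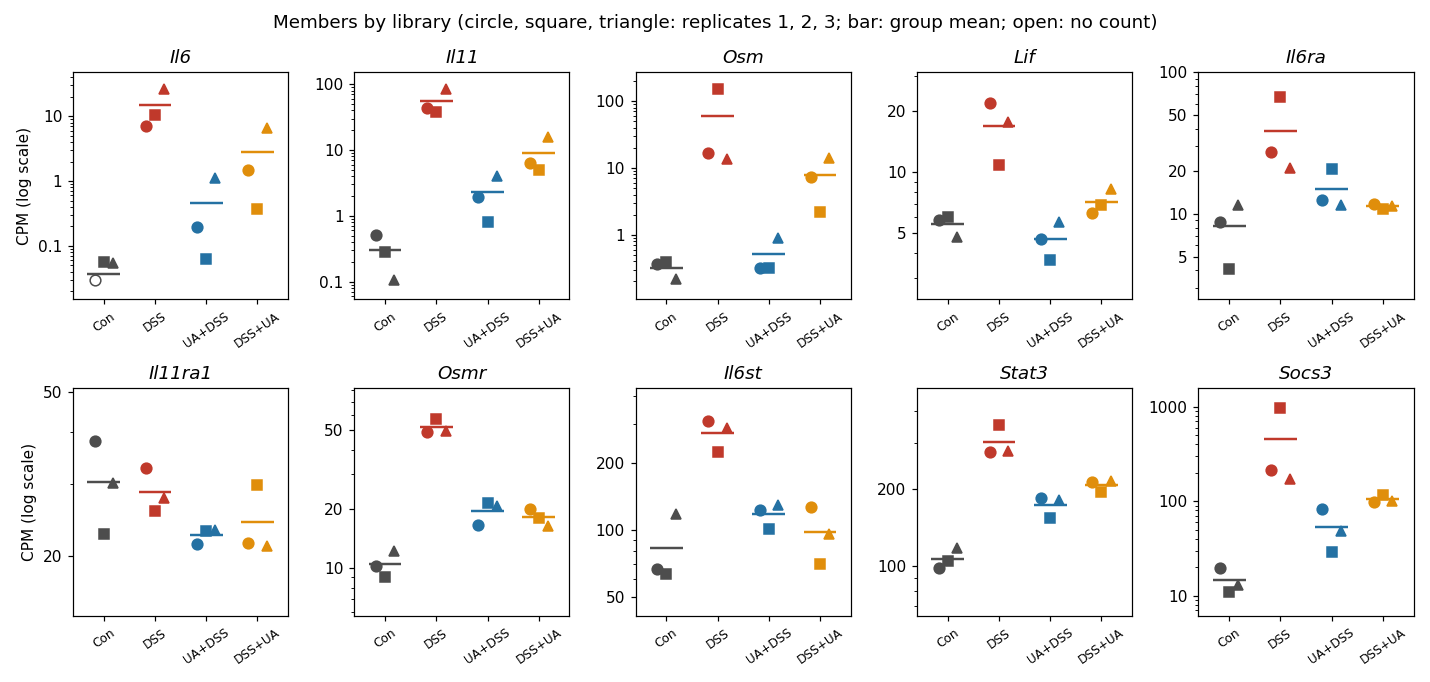
CPM (log axis) of each of the 10 genes in every library, by group. Circles, squares and triangles are replicates 1, 2 and 3, bars are group means of 3 libraries, and the open circle at the foot of the Il6 panel is Con 1, which held no Il6 count. The 3 DSS libraries lay above all Con libraries for 9 genes, and only Il11ra1 overlapped.

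Of the 4 receptor genes 3 rose, by less than Il6, Il11 and Osm but more than Lif, and Il11ra1 did not pass the test. Il6st (13:112464070-112510086) had 66.7, 63.6 and 118 CPM in Con and 309, 223 and 288 CPM in DSS. Its log2 fold change was 1.72 (SE 0.28, edgeR adjusted p = 0.00322). Osmr (15:6813577-6874969) gave 10.3, 9.04 and 12.2 CPM in Con and 49.1, 57.4 and 49.5 CPM in DSS, with no overlap. It had the smallest adjusted p of the members (log2 fold change 2.31, SE 0.17, edgeR adjusted p = 2.36e-04). Il6ra (3:89864059-89913196) went from 8.74, 4.11 and 11.7 CPM to 27.3, 67.4 and 21.1 CPM. Its log2 fold change of 2.24 (SE 0.47, edgeR adjusted p = 0.00780) was 1.57 without DSS 2, its highest library, and remained called. Il11ra1 (4:41699989-41769474) gave 38.1, 22.7 and 30.1 CPM in Con and 32.7, 25.8 and 27.6 CPM in DSS. The receptor of the strongly raised Il11 thus differed by -0.08 on the log2 scale (SE 0.20, edgeR adjusted p = 0.797), and by 0.12 without Con 1. Il11ra1 shares 46.3% of its 50-base stretches with its near-identical copies Il11ra2 and Gm13305 and other genes overlap it, so its count is uncertain. The copies held at most 8 counts in any library, and adding them to Il11ra1 gave -0.07.

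Stat3 (11:100885098-100939540) rose from 98.3, 105 and 118 CPM to 277, 354 and 279 CPM. This was a log2 fold change of 1.50 (SE 0.16, edgeR adjusted p = 8.68e-04), with no DSS library more than 1.27 times the next. Stat5a overlaps Stat3 on the opposite strand, and the sources used here do not say whether counting used strand. Socs3 (11:117966079-117970047) rose from 19.9, 11.0 and 12.9 CPM to 216, 965 and 173 CPM. Its log2 fold change of 4.95 (SE 0.70, edgeR adjusted p = 0.00242) was 3.73 without DSS 2, which held 4.48 times the Socs3 of the next library. The ratio of Socs3 to Stat3 CPM was 0.105 to 0.202 in Con and 0.778, 2.73 and 0.622 in DSS, so Socs3 rose more than Stat3 in every DSS library. Across the members 9 of 10 were raised by DSS, where 13.9% of all tested genes were raised. The same 9 lay above Con without overlap, as did 21.2% of tested genes. The median log2 fold change was 7.51 for the 4 ligands and 1.98 for the 4 receptors, against -0.03 for all tested genes.

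Windows upstream of the start sites are shown for Socs3, the feedback gene, and for the 3 ligands with a RefSeq window, because all 4 genes were raised by DSS and lowered in UA+DSS. Of the 10 members, 9 matched a window of 250 bases before to 50 after a RefSeq start site (RefSeq, GRCm38.p6). The windows were searched for the STAT motif TTCNNNGAA and the AP-1 motif TGANTCA, each of which reads the same on both strands. The STAT motif occurred in 8.3% of 32851 windows and, among the members, in that of Socs3, 154 bases before the start. The AP-1 motif occurred in 7.81% of windows and in those of Il6, Il11, Lif and Osmr, at 249, 98 and 228 bases before the start for the ligands and 3 bases after it for Osmr. The 250 bases before the start are given 5′ to 3′ on the gene's strand, with the motif in capitals. That of Il11 precedes the downstream of its 2 start sites, within an intron of the longer transcripts. That of Socs3 overlaps other noncoding transcripts of the same gene.
Socs3, chr11:117969367-117969616, minus strand: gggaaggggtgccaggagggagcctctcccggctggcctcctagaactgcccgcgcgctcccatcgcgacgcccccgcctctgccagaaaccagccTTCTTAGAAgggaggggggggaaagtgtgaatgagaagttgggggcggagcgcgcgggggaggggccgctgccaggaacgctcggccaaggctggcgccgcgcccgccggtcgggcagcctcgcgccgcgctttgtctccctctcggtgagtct
Il6, chr5:30012864-30013113, plus strand: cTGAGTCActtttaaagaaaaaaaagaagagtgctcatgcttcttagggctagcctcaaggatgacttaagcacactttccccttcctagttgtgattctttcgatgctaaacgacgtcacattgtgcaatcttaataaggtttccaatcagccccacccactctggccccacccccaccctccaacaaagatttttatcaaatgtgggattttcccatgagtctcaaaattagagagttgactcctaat
Il11, chr7:4778142-4778391, minus strand: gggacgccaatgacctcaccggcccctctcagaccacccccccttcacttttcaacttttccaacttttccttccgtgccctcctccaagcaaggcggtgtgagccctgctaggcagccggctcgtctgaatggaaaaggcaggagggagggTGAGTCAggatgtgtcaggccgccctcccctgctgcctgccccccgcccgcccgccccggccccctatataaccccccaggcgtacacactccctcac
Lif, chr11:4257318-4257567, plus strand: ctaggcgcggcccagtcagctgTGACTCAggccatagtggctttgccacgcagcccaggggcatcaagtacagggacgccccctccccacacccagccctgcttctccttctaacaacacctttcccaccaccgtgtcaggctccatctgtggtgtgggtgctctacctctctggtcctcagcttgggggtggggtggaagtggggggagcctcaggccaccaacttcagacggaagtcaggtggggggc
A motif match describes these letters and does not show binding.

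UA given before DSS was accompanied by lower levels of every ligand. Il6 had 3, 1 and 21 counts in UA+DSS, or 0.193, 0.0625 and 1.12 CPM, below each DSS library. Compared with the DSS group its log2 fold change was -4.94 (SE 1.14, edgeR adjusted p = 0.0183). It was -6.78 without UA+DSS 3, which held 21 of the 25 counts, and -4.20 without DSS 3, called in both. Il11 gave 1.93, 0.812 and 4.04 CPM, a log2 fold change of -4.60 (SE 0.68, edgeR adjusted p = 0.00777), and -5.34 without UA+DSS 3. Osm, at 0.321, 0.312 and 0.904 CPM, lay close to its Con values. Its log2 fold change was -6.84 (SE 1.18, edgeR adjusted p = 0.00999), -4.85 without DSS 2 and -7.56 without UA+DSS 3. Lif gave 4.68, 3.69 and 5.69 CPM, all below its DSS values (log2 fold change -1.85, SE 0.29, edgeR adjusted p = 0.00800).

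Osmr, Il6st, Stat3 and Socs3 were also lower in UA+DSS, Socs3 by more than Lif and the others by less. Osmr gave 16.7, 21.5 and 20.7 CPM (log2 fold change -1.40, SE 0.17, edgeR adjusted p = 0.00501). Il6st gave 123, 100.4 and 130 CPM (-1.22, SE 0.28, edgeR adjusted p = 0.0172). Osmr stood between Con and DSS without overlap, whereas Il6st overlapped Con 3. Il6ra gave 12.5, 20.6 and 11.6 CPM, and its log2 fold change of -1.37 did not pass the test (SE 0.46, edgeR adjusted p = 0.0573). It passed without Con 2 (-1.37, edgeR adjusted p = 0.0443) and without DSS 3 (-1.67, edgeR adjusted p = 0.0278), and was at -0.70 without DSS 2 (edgeR adjusted p = 0.250). Il11ra1, at 21.5, 23.0 and 23.2 CPM, differed by -0.35 (SE 0.21, edgeR adjusted p = 0.257) and was not called. Stat3 gave 184, 154 and 181 CPM (-0.81, SE 0.15, edgeR adjusted p = 0.0113). Socs3 gave 82.8, 29.0 and 47.9 CPM, a log2 fold change of -3.08 (SE 0.64, edgeR adjusted p = 0.0147) that was -1.87 without DSS 2.

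In all, 8 of 10 members were lowered in UA+DSS compared with DSS, where 10.5% of tested genes were lowered. All 10 had their 3 UA+DSS libraries below the 3 DSS libraries, as did 21.7% of tested genes. The calls depended on UA+DSS 2: without it 3 members, Il11, Lif and Osmr, were called, and the log2 fold changes of those lost were -4.45 for Il6, -6.58 for Osm, -1.11 for Il6st, -0.73 for Stat3 and -2.78 for Socs3 (edgeR adjusted p = 0.0581 to 0.0832). Il6 also missed the threshold without UA+DSS 1 (-4.59, edgeR adjusted p = 0.0594), and Socs3 without UA+DSS 3 (-3.02, edgeR adjusted p = 0.0505).

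**Figure D2:**
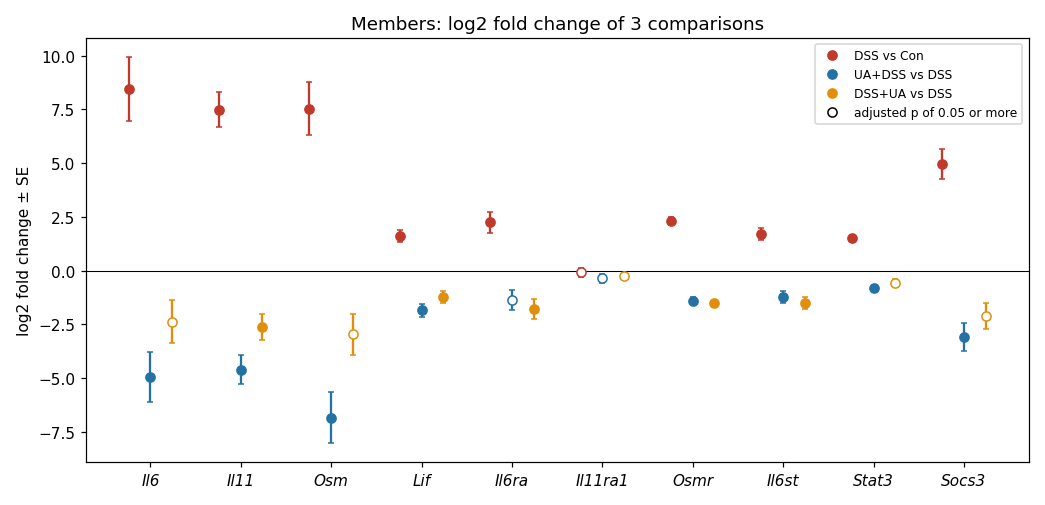
Log2 fold change with its SE for each gene in DSS vs Con, UA+DSS vs DSS and DSS+UA vs DSS (edgeR, 3 libraries per group). Filled points passed an adjusted p of 0.05. The comparisons share the DSS libraries. Il6, Il11, Osm and Socs3 lay farthest from 0 in DSS vs Con and UA+DSS vs DSS, and Il11ra1 was called in none of the 3.

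With the position score as a covariate, 0 of 10 members were called in UA+DSS vs DSS, while 7 had an unadjusted p under 0.05. Over all tested genes that fit called 3 at the adjusted threshold, and the share with an unadjusted p under 0.05 is not given. The log2 fold changes were -5.56 for Il6, -3.68 for Il11, -6.56 for Osm, -1.61 for Lif, -1.44 for Osmr, -1.41 for Il6st, -0.91 for Stat3 and -2.54 for Socs3. These 8 kept their direction, with SEs 1.47 to 2.23 times as large and adjusted p of 0.0702 to 0.240. Il6ra was at -1.26 and Il11ra1 turned to 0.12, neither called. Because the UA+DSS scores lie apart from all others, colon position and UA given before DSS cannot be told apart in these libraries. For DSS vs Con the same fit called the same 9 members, and 5382 of the 17658 tested genes in either direction.

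**Figure D3:**
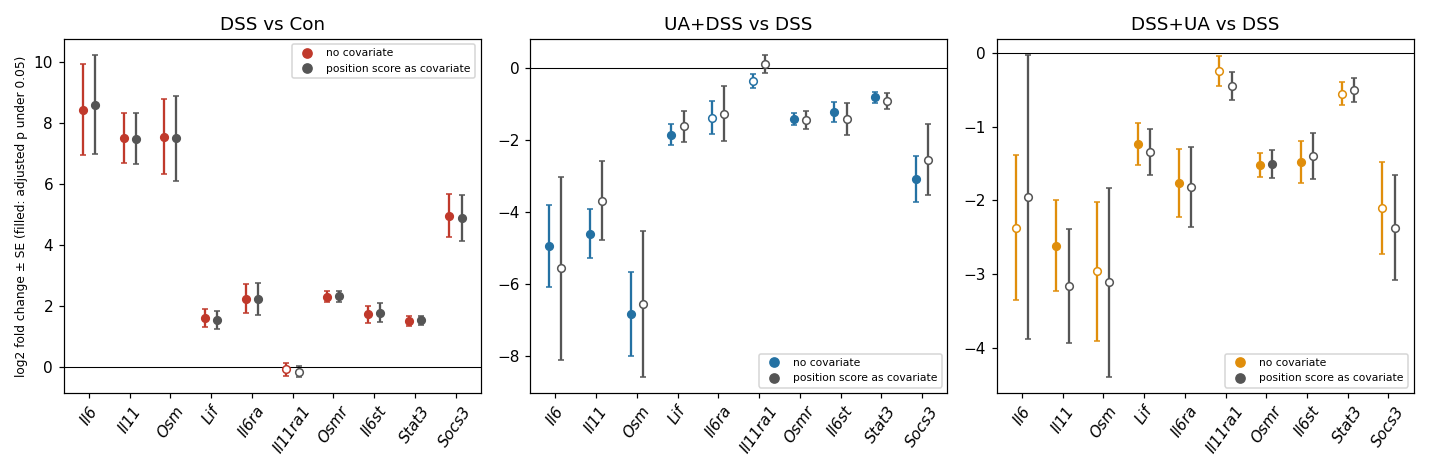
Log2 fold change with its SE for each gene without (coloured) and with (grey) the colon position score as a covariate, in the 3 comparisons. Filled points passed an adjusted p of 0.05. In UA+DSS vs DSS no grey point is filled, and the SEs are wider.

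UA given after DSS had begun was accompanied by lower Il11, Lif, Il6ra, Osmr and Il6st. Il11 gave 6.37, 4.95 and 15.7 CPM (log2 fold change -2.62, SE 0.62, edgeR adjusted p = 0.0356). Lif gave 6.32, 6.87 and 8.32 CPM (-1.24, SE 0.28, edgeR adjusted p = 0.0311). The values of these ligands did not overlap those of DSS. Il6 gave 1.48, 0.371 and 6.65 CPM, nearly reaching the lowest DSS library, and was not called (-2.37, SE 0.98, edgeR adjusted p = 0.137). Its value was -1.61 without DSS 3 and -3.96 without DSS+UA 3, not called in either. Osm gave 7.32, 2.17 and 13.9 CPM, overlapping DSS 3, and was not called either (-2.96, SE 0.94, edgeR adjusted p = 0.0720). Without DSS 3 it was -3.42 (edgeR adjusted p = 0.0476), and without DSS 2 it was -0.95, not called.

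Among the receptors, Osmr gave 19.9, 18.1 and 16.4 CPM (-1.52, SE 0.17, edgeR adjusted p = 0.00333). Il6st gave 127, 70.0 and 96.1 CPM (-1.48, SE 0.28, edgeR adjusted p = 0.0202), and Il6ra gave 11.8, 10.8 and 11.4 CPM (-1.77, SE 0.46, edgeR adjusted p = 0.0450). All 3 receptors lay below DSS without overlap. Il11ra1 gave 21.6, 29.8 and 21.2 CPM (-0.25, SE 0.20, edgeR adjusted p = 0.441). Stat3 at 211, 195 and 213 CPM (-0.55, SE 0.15, edgeR adjusted p = 0.0508) and Socs3 at 98.7, 116 and 100.3 CPM (-2.11, SE 0.62, edgeR adjusted p = 0.0602) were below every DSS library but narrowly missed the threshold. Stat3 passed it without Con 1 (-0.55, edgeR adjusted p = 0.0435), and Socs3 without DSS 1 (-2.43, edgeR adjusted p = 0.0489) or DSS 3 (-2.48, edgeR adjusted p = 0.0384). Without DSS 2 Socs3 was at -0.88.

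Thus 5 of 10 members were lowered in DSS+UA compared with DSS, where 5.0% of tested genes were lowered. 8 members lay below DSS without overlap, as did 16.4% of tested genes. Osmr was called whichever library was left out. Il6st was lost without DSS+UA 2 (-1.33, edgeR adjusted p = 0.0676) or DSS+UA 3 (-1.46, edgeR adjusted p = 0.0975). Il6ra was lost without DSS 2 (-1.08, edgeR adjusted p = 0.144), without any UA+DSS library (-1.76 to -1.75) or any DSS+UA library (-1.78 to -1.76). Il11 was lost without Con 2 (-2.62), DSS 2 (-2.81), DSS 3 (-2.15), UA+DSS 1 (-2.62) or any DSS+UA library (-3.27 to -2.37). Lif was lost without DSS 1 (-0.98), DSS 3 (-1.19), UA+DSS 1 (-1.23) or any DSS+UA library (-1.34 to -1.14). With the position score as a covariate only Osmr was called (-1.51, edgeR adjusted p = 0.0116), and that fit called 199 of all tested genes. Il11 (-3.16), Lif (-1.34), Il6ra (-1.82) and Il6st (-1.40) kept their direction but missed the threshold (edgeR adjusted p = 0.0599 to 0.0894). The DSS+UA scores of 4.11 to 5.06 did not overlap the DSS scores of 0.37 to 3.10.

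Compared with the Con group, no member was called in UA+DSS by edgeR, where 0.00566% of tested genes were called. 4 members had an unadjusted p under 0.05, DESeq2 called 3 (Il11, Osmr and Stat3) and limma-voom called 0. The shares of all tested genes by these measures are not given, and the 0.00566% of edgeR does not stand in for them. The values were not those of Con throughout: Il11 was 2.89 higher on the log2 scale (SE 0.76, edgeR adjusted p = 0.241), Osmr 0.90 (SE 0.17, edgeR adjusted p = 0.167) and Stat3 0.69 (SE 0.15, edgeR adjusted p = 0.184). 5 members lay above Con without overlap, as did 9.62% of tested genes. Il6 in UA+DSS was 13.9 times its Con level, with an exact interval of 3.47 to 121, and 3.55 times (0.509 to 39.2) without UA+DSS 3. These intervals cover counting error only. In the fit, which takes in the spread between libraries, Il6 was not called (log2 fold change 3.49, SE 1.63, edgeR adjusted p = 0.424).

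In DSS+UA 6 of 10 members were raised compared with Con, where 9.13% of tested genes were raised. These were Il6 (log2 fold change 6.06), Il11 (4.87), Osm (4.57), Socs3 (2.84), Stat3 (0.95) and Osmr (0.78), with edgeR adjusted p of 0.00540 to 0.0234. Lif, Il6ra and Il6st, raised by DSS itself, were at 0.37, 0.47 and 0.24 and were not called. Il6 in DSS+UA was 81.2 times its Con level (exact interval 22.1 to 676) and 27.1 times without DSS+UA 3. Il6 lost its call without any Con library (5.54 to 6.43) or DSS+UA 3 (4.48). Osm lost it without any Con library (4.36 to 4.73), DSS+UA 1 (4.63) or DSS+UA 3 (3.87), and Socs3 without Con 2 (2.68) or Con 3 (2.77). Il11 was called throughout, at 5.51 without Con 1 and 4.21 without DSS+UA 3. With the position score as a covariate Il11 (4.31), Stat3 (1.02) and Osmr (0.81) were called. Il6 (6.63, edgeR adjusted p = 0.0877), Osm (4.38, edgeR adjusted p = 0.119) and Socs3 (2.51, edgeR adjusted p = 0.0917) were not.

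Between the UA groups, Osm was the member called: it was 3.88 lower in UA+DSS than in DSS+UA on the log2 scale (-3.88, SE 1.08, edgeR adjusted p = 0.0357), where 9.23% of tested genes were lower. With 1 of 10 members called, the members stood near that share. The call of Osm was lost without Con 2, Con 3, DSS+UA 1, DSS+UA 3 or any UA+DSS library, with values of -4.61 to -3.19. It was also lost with the position score as a covariate (-3.45, SE 2.70, edgeR adjusted p = 0.618). Il11 (-1.98, SE 0.63, edgeR adjusted p = 0.0529) and Il6 (-2.57, SE 1.08, edgeR adjusted p = 0.123) were not called, nor were the receptors, at -0.10 to 0.40. Without Con 1, DSS 2 or UA+DSS 3, Il11 was called. By group mean, Il6, Il11, Osm, Stat3 and Socs3 followed the order Con, UA+DSS, DSS+UA, DSS. Osmr, Il6st and Il6ra followed the order Con, DSS+UA, UA+DSS, DSS, with neighbouring UA groups that did not differ beyond their spread. Lif was lowest in UA+DSS and next in Con, and Il11ra1 ran from UA+DSS through DSS+UA and DSS to Con with no neighbours called apart.

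Ligand and receptor transcripts were compared per kilobase of exon, since longer transcripts give more counts. The 4 ligands summed to 1.75, 1.70 and 1.27 CPM per kb in Con and 36.1, 91.9 and 61.9 in DSS. The 4 receptors summed to 16.4, 12.0 and 19.7 CPM per kb in Con and 42.3, 38.4 and 38.6 in DSS. Lifr, the chain for LIF, is not in the receptor sum although Lif is in the ligand sum, and the Il11ra1 count is uncertain. The ligand sum was thus 6.46% to 14.2% of the receptor sum in Con and 85.1%, 239% and 160% in DSS. It was 7.64% to 20.6% in UA+DSS, overlapping Con, and 43.3%, 32.2% and 114% in DSS+UA. With the longest transcript as the length the DSS range was 63.1% to 174% and the Con range 4.76% to 10.1%, so the gap between groups did not rest on the length used. The receptor sum was 18.4 to 19.9 CPM per kb in UA+DSS and 15.7 to 19.3 in DSS+UA, close together, whereas the ligand sums of 1.40 to 4.11 and 5.06 to 18.3 did not overlap. These groups also lay apart on the position score. With the score as a covariate, Il6, Il11, Osm and Lif were at -3.60, -0.52, -3.45 and -0.26 in UA+DSS vs DSS+UA, none called.

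The make-up of the ligand transcripts also differed by group. Lif made up 76.7% to 86.9% of the ligand sum in Con and 2.73% to 14.1% in DSS. Il11 led in DSS 1 (57.5%) and DSS 3 (66.0%), and Osm led in DSS 2 (72.8%). Il6 supplied 4.67% to 17.7% in DSS, never the largest share in any library. In UA+DSS Lif led again in the first and second libraries (48.5% and 60.5%) and Il11 in the third (47.3%). In DSS+UA Osm led in the first (38.6%) and Il11 in the others (47.0% and 41.2%). Il6st, the shared chain, was 36.6% to 67.1% of the receptor sum over all libraries. Socs3 stood at 0.188 to 0.451 of Stat3 CPM in UA+DSS and at 0.467 to 0.593 in DSS+UA, above every Con library in the latter.

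**Figure D4:**
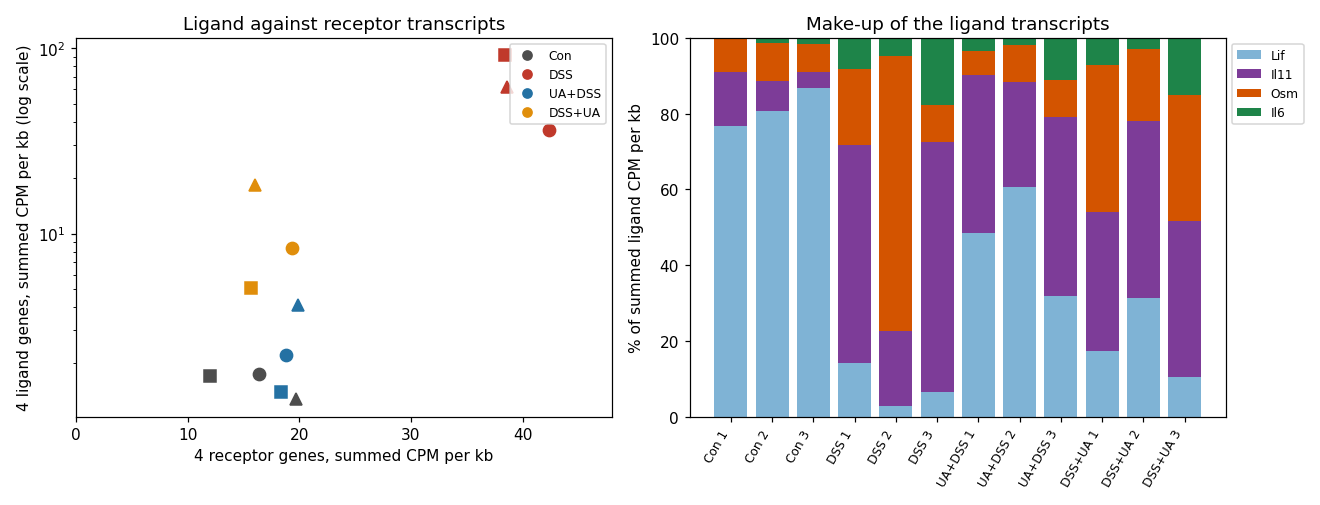
Left, summed CPM per kb of the 4 ligands (log axis) against that of the 4 receptors, 1 point per library with symbols for replicates 1 (circle), 2 (square) and 3 (triangle). Right, the share of each ligand in the ligand sum of every library. The UA groups have receptor sums of 15.7 to 19.9 and ligand sums that do not overlap, and they also lie apart on the position score. Lif gives way to Il11 and Osm in DSS.

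Within DSS the ligands peaked in different libraries, Il6 and Il11 in DSS 3, Osm in DSS 2 and Lif in DSS 1. All 4 were highest in UA+DSS 3 and in DSS+UA 3 within those groups. Socs3, Il6ra, Stat3 and Osmr were, with Osm, highest in DSS 2, the library highest in neutrophil markers. In the UA groups Socs3 was highest in UA+DSS 1 and DSS+UA 2, the libraries lowest in these markers. The neutrophil markers summed to 9.60 to 114 CPM in Con, 909 to 18520 in DSS, 27.3 to 123 in UA+DSS and 403 to 1028 in DSS+UA. Ly6g departed from the rest of the list, giving 112.5 of the 114 CPM in Con 1 and 274 of the 403 CPM in DSS+UA 2. In DSS+UA compared with DSS, Ly6g was at 0.33 on the log2 scale and the other markers at -4.68 to -3.54. Of the 8 neutrophil markers, 7 were raised in DSS, 8 lowered in UA+DSS and 0 called in DSS+UA compared with DSS. In Con 1, Con 2 and Con 3, 1, 4 and 3 of these markers were at 0, S100a8 or S100a9 among them each time. The 8 monocyte and macrophage markers summed to 121 to 240 CPM in Con, 650 to 3056 in DSS with the highest value in DSS 2, 198 to 381 in UA+DSS and 272 to 653 in DSS+UA.

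The 8 fibroblast markers were highest in DSS 3 (7020 CPM), where Il6 and Il11 peaked, against 3300 in DSS 1 and 4414 in DSS 2. They summed to 1085 to 1852 CPM in Con, 630 to 1666 in UA+DSS and 987 to 2390 in DSS+UA. In DSS+UA the library highest in fibroblast markers, DSS+UA 2, was the lowest for Il6 and Il11. Epithelial markers summed to 8599 to 21930 CPM in Con, 4813 to 10100 in DSS, 18780 to 23080 in UA+DSS and 10050 to 14560 in DSS+UA. Endothelial markers were 251 to 379 CPM in DSS and 92.9 to 204 in the other groups, T cell markers 32.7 to 96.3 in DSS and 13.4 to 23.7 in Con, and smooth muscle markers 661 to 1454 in DSS and 1094 to 3467 in Con. The part of these cell types in the levels of the members was not tested.

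**Figure D5:**
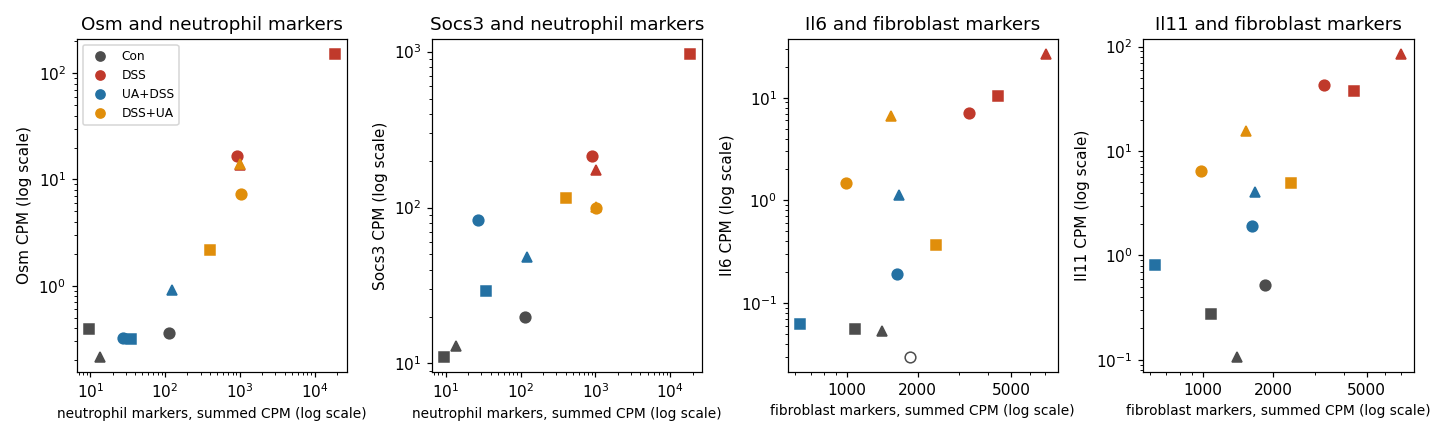
Osm and Socs3 CPM against the summed CPM of 8 neutrophil markers, and Il6 and Il11 CPM against that of 8 fibroblast markers, on log axes with 1 point per library and symbols for replicates 1 (circle), 2 (square) and 3 (triangle). The open circle is Con 1, with no Il6 count. DSS 2 is at the top right of the neutrophil panels and DSS 3 at the top right of the fibroblast panels.

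The genes whose log2 CPM followed each member most closely over the 12 libraries also differed. For Il6 they were Cemip (Pearson r = 0.967), Mmp3 (0.962) and Timp1 (0.959), and for Il11 Bdkrb1 (0.976), Cxcl1 (0.973) and Ccl2 (0.972). For Socs3 they were Clec4d (0.982), Csf2rb (0.981) and Pirb (0.980), and for Il6st Chl1 (0.972), Gprc5b (0.961) and Kirrel (0.957). These values describe libraries that share their groups, and they carry no test.

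The rest of the pathway was read from 54 further genes, 49 of them tested. In DSS compared with Con, 23 were raised and 2 lowered, in UA+DSS compared with DSS 1 was raised and 17 lowered, and in DSS+UA compared with DSS 4 were lowered. Of all tested genes 26.5%, 18.7% and 5.0% were called in these ways. Of the other ligands, Il27, the IL-27 subunit p28, had 0 counts in Con and 89 in DSS, at least 27.9-fold higher when 3 counts over the Con group are taken as the limit of detection. Ebi3, the partner subunit of Il27, was raised by 2.80 (SE 0.78, edgeR adjusted p = 0.0240). The DSS libraries spread widely for both, from 1.69 to 17.6 CPM for Ebi3 and from 0.423 to 3.26 CPM for Il27. Ctf1, cardiotrophin 1, went the other way, from 3.79 ± 0.32 CPM (SD, n = 3) in Con to 1.12 ± 0.57 in DSS (log2 fold change -1.76, SE 0.44, edgeR adjusted p = 0.0150). In UA+DSS compared with DSS, Ebi3 was lowered (-2.59, edgeR adjusted p = 0.0406), while Il27 (-1.84) and Ctf1 (0.83) were not called. In DSS+UA compared with DSS the 3 were at -1.97, -2.25 and 0.41, not called. Of the other receptors tested, Il27ra was raised by DSS (2.21, SE 0.57, edgeR adjusted p = 0.0170) and not called in UA+DSS (-1.08) or DSS+UA (-0.76). Lifr, which pairs with gp130 for LIF, gave 15.7 ± 9.90 CPM in Con and 27.7 ± 1.92 in DSS (0.82, not called). It was 11.7 ± 0.77 CPM in DSS+UA, lowered compared with DSS by a bare margin (-1.24, SE 0.34, edgeR adjusted p = 0.04996), and at -0.75 in UA+DSS, not called. Cntfr, a ciliary neurotrophic factor receptor chain, was at 1.18 in DSS compared with Con, and at -0.68 and -0.56 in UA+DSS and DSS+UA compared with DSS, called in none.

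Of 10 other kinases and STATs, 5 were raised by DSS, 3 were lowered in UA+DSS and 1 in DSS+UA. Of all tested genes 13.9% were raised, and 10.5% and 5.0% lowered, in these comparisons. Jak1, a kinase bound to gp130, was raised by 0.88 (SE 0.16, edgeR adjusted p = 0.00431), Jak3 by 1.50 (SE 0.27, edgeR adjusted p = 0.00432) and Stat4 by 3.14 (SE 0.58, edgeR adjusted p = 0.00480). In UA+DSS compared with DSS, Jak1 (-0.52) and Jak3 (-0.89) were lowered and Stat4 (-1.62) was not called, and in DSS+UA the 3 were at -0.50, -0.43 and -0.69, not called. Of 13 other inhibitors, 3 were raised by DSS and 1 was lowered, where 26.5% of all tested genes were called in either direction. The median log2 fold change of these inhibitors was 0.14, against -0.03 for all tested genes, so the list as a whole stood near all genes. Ptpn1, a tyrosine phosphatase of JAK kinases, was raised by 2.35 (SE 0.39, edgeR adjusted p = 0.00332), with 119 to 406 CPM in DSS, and lowered in UA+DSS (-1.87). Ptpn6 followed at 1.46 and -1.25, both called, and the 2 phosphatases were at -1.25 and -0.95 in DSS+UA, not called. Socs2, a suppressor best known for growth hormone signals, moved opposite to Socs3: 51.6 ± 5.03 CPM in Con, 26.0 ± 5.23 in DSS and 48.6 ± 8.92 in UA+DSS (-0.99 and 0.90, edgeR adjusted p = 0.00466 and 0.0129). In DSS+UA Socs2 was at 16.9 ± 1.65 CPM, a log2 fold change of -0.62 from DSS that was not called.

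Of 18 known STAT3 target genes, 12 were raised by DSS, 10 were lowered in UA+DSS and 2, Cebpb and Il4ra, in DSS+UA. Of all tested genes 13.9% were raised, and 10.5% and 5.0% lowered, in these comparisons. The targets had median log2 fold changes of 2.10, -1.48 and -0.77, against -0.03, -0.02 and 0.02 for all tested genes. Reg3b and Reg3g, antimicrobial lectins of the epithelium, were the 2 with a positive log2 fold change in UA+DSS compared with DSS (3.19 and 3.90, not called). Reg3b gave 285.5 to 6657 CPM in UA+DSS and 9.91 to 499.9 in DSS, and Reg3g gave 50.6 to 1579 and 5.44 to 56.7. Saa3, an acute phase apolipoprotein, was raised by 9.99 (SE 1.49), Lrg1, a secreted glycoprotein, by 5.70 (SE 0.78) and Cebpb, a transcription factor of acute phase genes, by 4.16 (SE 0.60), with edgeR adjusted p of 0.00229 to 0.00279. In UA+DSS compared with DSS they were at -3.85, -3.49 and -3.46, all called. In DSS+UA compared with DSS Cebpb was lowered (-2.38, edgeR adjusted p = 0.0352), and Saa3 (-3.43) and Lrg1 (-0.33) were not called. Lrg1 was at 137 ± 14.0 CPM there, inside the DSS range of 75.7 to 356 CPM. The DSS range was also wide for Saa3 (241.5 to 3281 CPM) and Cebpb (91.4 to 509 CPM). Of these lists no gene was called in UA+DSS with the position score as a covariate, and the count of 18 called was 1 without UA+DSS 2, 8 without UA+DSS 1 or UA+DSS 3 and 10 without DSS 2. The 4 called in DSS+UA became 0 without any UA+DSS or DSS+UA library, 1 without DSS 2, 2 without Con 3 and 10 without DSS 3.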

How the data were processed

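Colon RNA of 3 mice from each of the 4 groups was made into Illumina TruSeq libraries and sequenced by the authors, who mapped the reads to GRCm38 and report that gene counts were taken with HISAT2. As deposited, the values are raw counts, whole numbers for each Ensembl gene, without any scaling. FastQC and Cuffdiff are also listed in the submitters' processing notes. The counting program, annotation release, use of strand and treatment of reads that match several genes are not stated. Groups came from the sample titles. The replicates are separate colonic tissues of a group.

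Genes were filtered by filterByExpr (17658 of 54532 kept, 99.8% of counts), scaled by TMM (factors 0.871 to 1.09) and fitted in 1 robust quasi-likelihood model of the 12 libraries with edgeR 4.0.16 in R 4.3.3. The Benjamini-Hochberg threshold was 0.05 over all tested genes. The scripts were tested on simulated data. CPM used the scaled library sizes, log2 CPM a prior count of 2, and CPM per kb the union of exons of GENCODE vM21. The 95% intervals of count ratios are exact binomial. DESeq2 1.42.0, limma 3.58.1 (voom), other scalings and filters, 2-group fits, the replicate number as a block, the colon position score and leaving out each library were alternatives, as was adding the copies of Il11ra1, chosen after seeing the data. Descriptive values used Python 3.11.15, pandas 2.3.3, scipy 1.17.1 and numpy 2.4.6. Genes without a symbol (37) held 0.0036% of the counts and were not named.

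The members, the other gene lists and the marker lists were chosen with earlier results of these data known. The named genes were all 10 members, the 3 tested genes of each other list with the smallest p in DSS vs Con, and for Il6, Il11, Il6st and Socs3 the 3 tested genes with the highest Pearson r at a mean log2 CPM of at least 1. Il4ra, Reg3b and Reg3g were named in addition after their values were seen. Of the 54 other pathway genes, Cntf, Ctf2, Il31 and Il31ra did not pass the filter and Il11ra2 matched more than 1 identifier. Same-numbered libraries of different groups did not deviate together: 5 of 18 pairs had a correlation of deviations over 0.1 (range -0.216 to 0.187). The numbers were therefore not taken as pairs.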

Additional observations from a re-analysis of the deposited data

Results flagged for a closer look

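Of the 10 members, Osm was the 1 called between the schedules of UA, where 9.23% of tested genes were lower in UA+DSS. A count of 1 in 10 is near that share and does not set the members apart from other genes. Compared with the DSS group, its log2 fold change was -6.84 (SE 1.18) with UA given before DSS and -2.96 (SE 0.94) with UA given after, and the difference was -3.88 (SE 1.08, edgeR adjusted p = 0.0357). All 3 UA+DSS libraries (0.312 to 0.904 CPM) lay below all 3 DSS+UA libraries (2.17 to 13.9 CPM). The same held for Il11, Lif, Stat3 and Socs3. The share of all tested genes that separate in this way is not given, so this is not read as particular to the members. The neutrophil markers (27.3 to 123 CPM against 403 to 1028 CPM) and the position score (-5.70 to -4.16 against 4.11 to 5.06) differed between the same libraries. Ly6g alone gave 12.0 to 54.5 and 274 to 390 CPM of these marker sums, and 2 of the 8 markers were called lower. With the position score as a covariate the difference in Osm was -3.45 (SE 2.70, edgeR adjusted p = 0.618) and was not called. The call of Osm was also lost without Con 2, Con 3, DSS+UA 1, DSS+UA 3 or any UA+DSS library. Both limma-voom and the fit with no filter called 0 members. The part of the neutrophil markers was not tested.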

How the results depend on the processing

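Over 766 alternatives of 37 member results, 669 kept their direction and side of the threshold, 80 lost the call, 15 gained it and 2 reversed. The 37 were all members in DSS vs Con, UA+DSS vs DSS and DSS+UA vs DSS, and the called members of the other comparisons. Members not called in those other comparisons were not tallied, so calls gained there are not among the 15. Both reversed values in this tally were of Il11ra1, never called. Il11ra1 was at 0.12 in DSS vs Con without Con 1 (-0.25 to 0.12 over the left-out libraries). With the position score it was at 0.12 in UA+DSS vs DSS. Outside the tally, the position score also changed the sign of Il11ra1 (-0.10 to 0.57) and Il6st (0.27 to -0.01) in UA+DSS vs DSS+UA, neither called. The count of 9 members in DSS vs Con was 9 whichever library was left out. It was 8 of 10 in the 2-group fit and 6 of the 7 members that have at least 10 counts in every sample. The position score as a covariate gave 0 members and 0 other pathway genes in UA+DSS vs DSS (8 and 18 in the fit reported), 1 and 1 in DSS+UA vs DSS (5 and 4), 3 members in DSS+UA vs Con (6) and 0 in UA+DSS vs DSS+UA (1). A 2-group fit gave 13 other pathway genes in DSS vs Con (25), 8 in UA+DSS vs DSS, and 2 members and 1 other gene in DSS+UA vs DSS. DESeq2 gave 8 members and 12 other genes in DSS+UA vs DSS, 3 members in UA+DSS vs Con (0) and 3 in UA+DSS vs DSS+UA, where limma-voom gave 0. The shares of all tested genes called by DESeq2 and limma-voom are not given. No filter on low counts gave 3 members and 2 other genes in DSS+UA vs DSS and 0 members in UA+DSS vs DSS+UA. At least 10 counts in every sample left out Il6, Il11 and Osm, and gave 5 members in UA+DSS vs DSS, 3 in DSS+UA vs Con, 0 in UA+DSS vs DSS+UA and 7 other genes in DSS+UA vs DSS.

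With the replicate number as a block, 1 other pathway gene and 4 members (Il6, Il11, Osmr and Il6st) were called in DSS+UA vs DSS and 3 members (Il6, Il11 and Osm) in UA+DSS vs DSS+UA. For 5 of the 12 libraries, the mean correlation with libraries of the other groups was highest for their own number, so the numbers were not read as pairs. Leaving out each library in turn gave 3 to 9 members and 1 to 22 other genes in UA+DSS vs DSS, 1 to 6 members and 0 to 10 other genes in DSS+UA vs DSS, 3 to 6 members in DSS+UA vs Con and 0 to 2 in UA+DSS vs DSS+UA. In DSS vs Con it gave 18 to 27 other genes. A group with a library left out keeps 2, and the spread is then shared over the model. Scaling by library size alone moved the all-gene median in DSS+UA vs DSS from 0.02 to -0.11 on the log2 scale and added Stat3 to its calls. Some of these fits held fewer samples or genes, and the cause of the moves was not tested. Among the members, Il6 had the fewest counts in Con, 2 over the group, and its ratios to Con are limited by that depth.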
